A study of Mus musculus with 24 samples.

Results

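The comparison described here is that of left quadriceps muscle from Lama2-CMD mice with left quadriceps muscle from wild-type mice, both on the B6 background. Its members are 6 libraries of 24, chosen by the labels: libraries 4, 5 and 6 (CMD, strain C57BL/6J, carrying the Lama2-CMD mutation) and libraries 1, 2 and 3 (WT, C57BL/6J, labelled healthy). Both groups were 25 weeks old and carried no other labelled allele or treatment. Libraries 4 and 6 of the CMD group and library 1 of the WT group are labelled male, and CMD library 5 and WT libraries 2 and 3 are labelled female. The Lama2 allele is not given in the labels. The other libraries come from the strains 67, 87 and D2, whose CMD and WT groups hold 3 libraries each, also at 25 weeks. Among those of 67 and 87, library 7 (67 WT), library 13 (87 WT) and libraries 17 and 18 (87 CMD) are labelled male. The rest of 67 and 87 are labelled female, so the 67 CMD group holds no male. Each library is listed as 1 left quadriceps. The labels do not say more about how the animals were chosen, so p-values measure the spread between samples. That spread was estimated over the 18 libraries of B6, 67 and 87 and not over the 6 B6 libraries alone.

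Lama2 encodes the alpha chain of the main laminin in muscle, a protein of the basement membrane, which is the sheet of matrix around each fibre. Laminin binds dystroglycan and integrins on the fibre surface and so ties the matrix to the cytoskeleton. Loss of this chain causes a congenital muscular dystrophy in which fibres degenerate, satellite cells rebuild them, matrix is deposited and peripheral nerve is also affected.

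The 6 libraries held 32292613 to 42068709 exon reads, of which 98.09% to 98.24% were unique, and 15517 to 16025 genes had at least 1 read. Reads are given as CPM (reads of a gene relative to the scaled size of its library). A fold change is CMD over WT on the log2 scale, with its standard error (SE), from a model of read counts that also held the 67 and 87 libraries and a term for sex. A gene was called raised or lowered when its p from edgeR's quasi-likelihood test, adjusted by the Benjamini-Hochberg method over 14503 genes, was under 0.05. On the first principal component of the 6 libraries, with 48.3% of the variance, CMD lay at 36.07 to 51.84 and WT at -53.68 to -36.69. The second, with 22.1%, set WT library 1 at 60.85 apart from the other 5 at -32.3 to 6.97. Many of the counts and calls that moved without this library or without CMD library 5 are given beside the results they touch, but not all. WT library 1 is the only male of the B6 WT group, and CMD library 5 the only female of the B6 CMD group. Leaving out either leaves that group with a single sex. These fits thus change the balance of sex as well as the libraries. The markers of skeletal muscle were present in all 6 libraries, with a summed level of 78737 to 91734 TPM (the authors' values per transcript length and library) over 10 genes in CMD and 116799 to 145760 TPM in WT.

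In B6 CMD muscle 2471 genes differed from WT, or 17% of those tested. They comprise 1194 raised genes (8.23% of all) and 1277 lowered genes (8.81%). An unadjusted p under 0.05 was found for 4779 genes. The 3 CMD libraries lay above all 3 WT libraries for 20% of genes and below them for 21.9%. The median fold change of all genes was 0.02 on the log2 scale. Leaving out WT library 1 gave 5.87% of genes raised and 6.08% lowered. Without CMD library 5 the count was 889, or 6.06% of genes, with 3.48% raised and 2.57% lowered. The count was 1239 without WT library 2 and 3827 without library 16 of the 87 CMD group, which enters through the shared spread and the shared sex term. Of the 2471 genes 705 were called with each of the 6 libraries left out in turn.

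**Figure D1:**
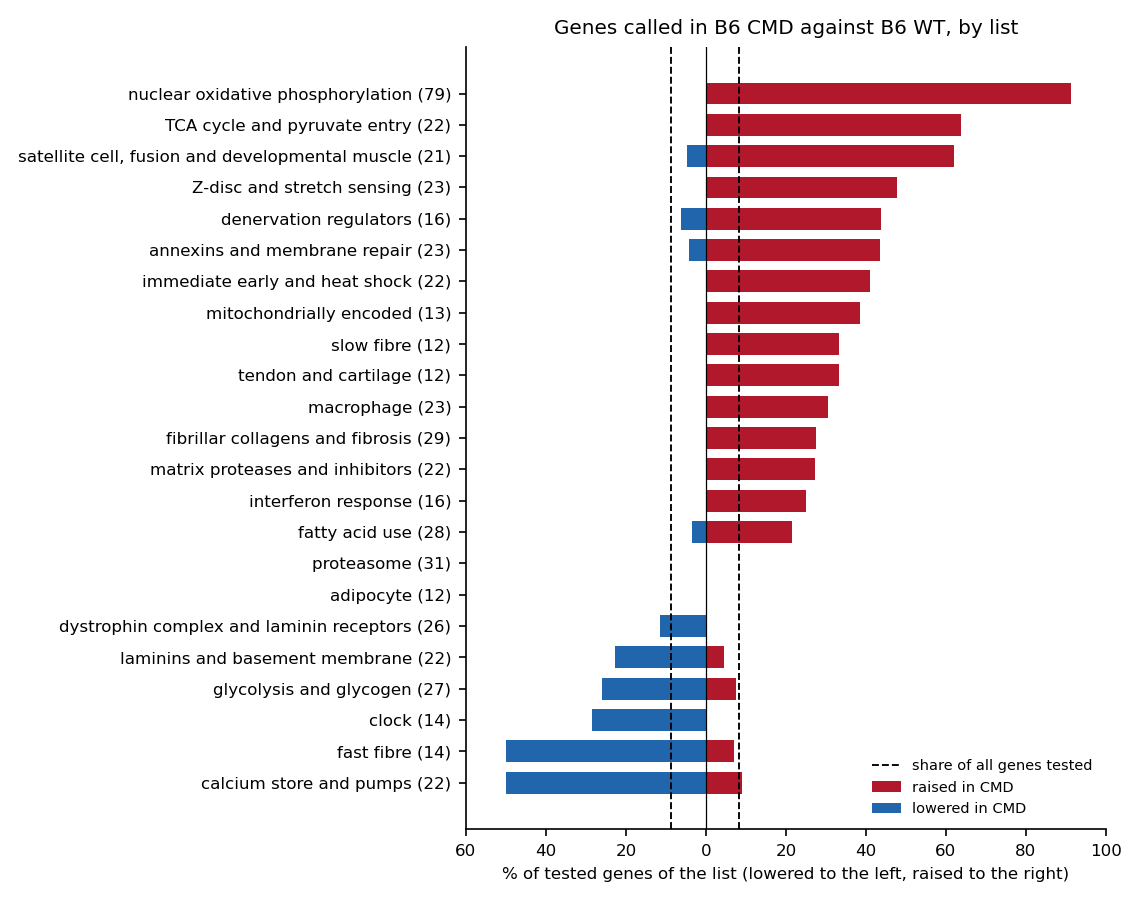
Share of the tested genes of each list (number in brackets) that were raised (to the right) or lowered (to the left) in B6 CMD against B6 WT, in percent. The dashed lines are the shares over all 14503 genes, 8.23% raised and 8.81% lowered; nuclear oxidative phosphorylation genes reached 91.1% raised, and no proteasome or adipocyte gene was called.

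Lama2 (ENSMUSG00000019899) had 23, 15.5 and 23.4 CPM in CMD libraries 4, 5 and 6, against 39.9, 35.2 and 49.0 CPM in WT libraries 1, 2 and 3. The groups did not overlap. Its fold change was -1.13 ± 0.20 on the log2 scale (SE, adjusted p = 0.00234), and it stayed between -1.31 and -0.94 with each B6 library left out. The transcript was thus lower in the mutant muscle but still measured, at 2.93 to 4.48 TPM in CMD and 7.93 to 10.1 TPM in WT.

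Of 22 laminin and basement membrane genes 1 rose (4.55%) and 5 fell (22.7%), beside 8.23% raised and 8.81% lowered of all genes. The median fold change was -0.28, against 0.02 for all genes. The genes that fell were Lama2 itself, Lamc3, and Col4a3, Col4a4 and Col4a6, the minor chains of basement membrane collagen IV. The number lowered was 3 without WT library 1 and 2 without CMD library 5. The calls of Col4a3 and Col4a6 were lost without WT library 1 (adjusted p = 0.0623 and 0.0716), and without CMD library 5 those of Lamc3, Col4a3 and Col4a6 (adjusted p = 0.132, 0.0814 and 0.22). With no sex term Lamc3, Col4a3, Col4a4 and Col4a6 were not called (adjusted p = 0.512, 0.105, 0.351 and 0.145). Col4a4 was called at -1.33 (adjusted p = 0.00323) although its libraries overlapped, with 3.44, 0.837 and 2.64 CPM in CMD and 6.36, 3.34 and 2.27 CPM in WT. The major chains Col4a1 and Col4a2 had fold changes of 0.36 and 0.35 and passed no test (adjusted p = 0.236 and 0.228). Lama4 and Lama5, the laminin alpha chains that other muscle and vessel laminins carry, had values of 0.20 and -0.65 (adjusted p = 0.552 and 0.108). Lamb2 and Lamc1, the partners of Lama2 in muscle laminin, had -0.37 and -0.07 (adjusted p = 0.232 and 0.871).

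Of 26 genes of the dystrophin complex and the laminin receptors 3 fell (11.5%) and none rose, beside 8.81% lowered and 8.23% raised of all genes. The number lowered was 2 without WT library 1 and 1 without CMD library 5. Nos1, the neuronal nitric oxide synthase that the complex anchors at the fibre membrane, had 60.1, 52.7 and 59.0 CPM in CMD libraries and 128, 183 and 149 CPM in WT libraries. Its fold change was -1.45 ± 0.24 (SE, adjusted p = 0.00153), with no overlap between the groups. Dag1, which encodes dystroglycan, the receptor of laminin, fell by 0.63 on the log2 scale (adjusted p = 0.0483), a call that was lost in 5 of the 6 fits that leave out 1 B6 library. Dmd and Utrn, which encode dystrophin and its relative utrophin, had -0.36 and -0.35 (adjusted p = 0.528 and 0.417).

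Transcripts of muscle formation were higher in CMD muscle. Of 21 genes of satellite cells, cell fusion and developing muscle 13 rose and 1 fell, with a median fold change of 1.15. The number raised was 8 without WT library 1 and 8 without CMD library 5. In bulk tissue fewer cells of a type cannot be told apart from less RNA per cell, here and for every cell type below.

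Transcripts of the pair of fusion proteins that let myoblasts merge into fibres were close to absent in WT. Mymk (ENSMUSG00000009214) had 2.96, 5.46 and 6.20 CPM in CMD and 0, 0.0864 and 0.0504 CPM in WT. Mymx (ENSMUSG00000079471) had 262 reads over the CMD libraries and 1 over the WT libraries, which is 240 times as many once scaled for depth, and counting error alone allows 42.7 to 9.51e+03 times (95% interval). Embryonic myosin Myh3 (ENSMUSG00000020908), the first heavy chain that a forming fibre makes, had 20.4, 25.7 and 31.1 CPM in CMD and 0.0983, 1.44 and 1.87 CPM in WT, a fold change of 4.58 ± 0.81 (SE, adjusted p = 0.00233). It was 3.71 (adjusted p = 0.0101) without WT library 1. None of these genes overlapped between the groups.

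Further along the same programme, the neonatal myosin Myh8, the embryonic light chain Myl4 and the fetal troponin Tnnt2 rose by 1.91, 2.64 and 1.81 (adjusted p = 0.0151, 0.0176 and 0.0254). Without WT library 1 they were 1.63, 2.08 and 1.29, past the threshold in no case (adjusted p = 0.0761, 0.0842 and 0.129), nor without CMD library 5 (adjusted p = 0.0681, 0.07 and 0.089). Among filament genes Nes, which encodes nestin, a filament protein of regenerating fibres and of nerve-muscle junctions, rose to 122 ± 26.5 CPM in CMD, against 38.0 ± 7.22 CPM in WT (SD, n = 3 each; fold change 1.66, adjusted p = 0.00122). The satellite cell marker Pax7 did not follow: it had 1.62, 1.78 and 1.34 CPM in CMD and 2.59, 3.80 and 2.32 CPM in WT (fold change -0.95, adjusted p = 0.165). Cdh15, the cadherin of satellite cells, fell by 0.60 (adjusted p = 0.0183; 0.096 without CMD library 5).

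**Figure D2:**
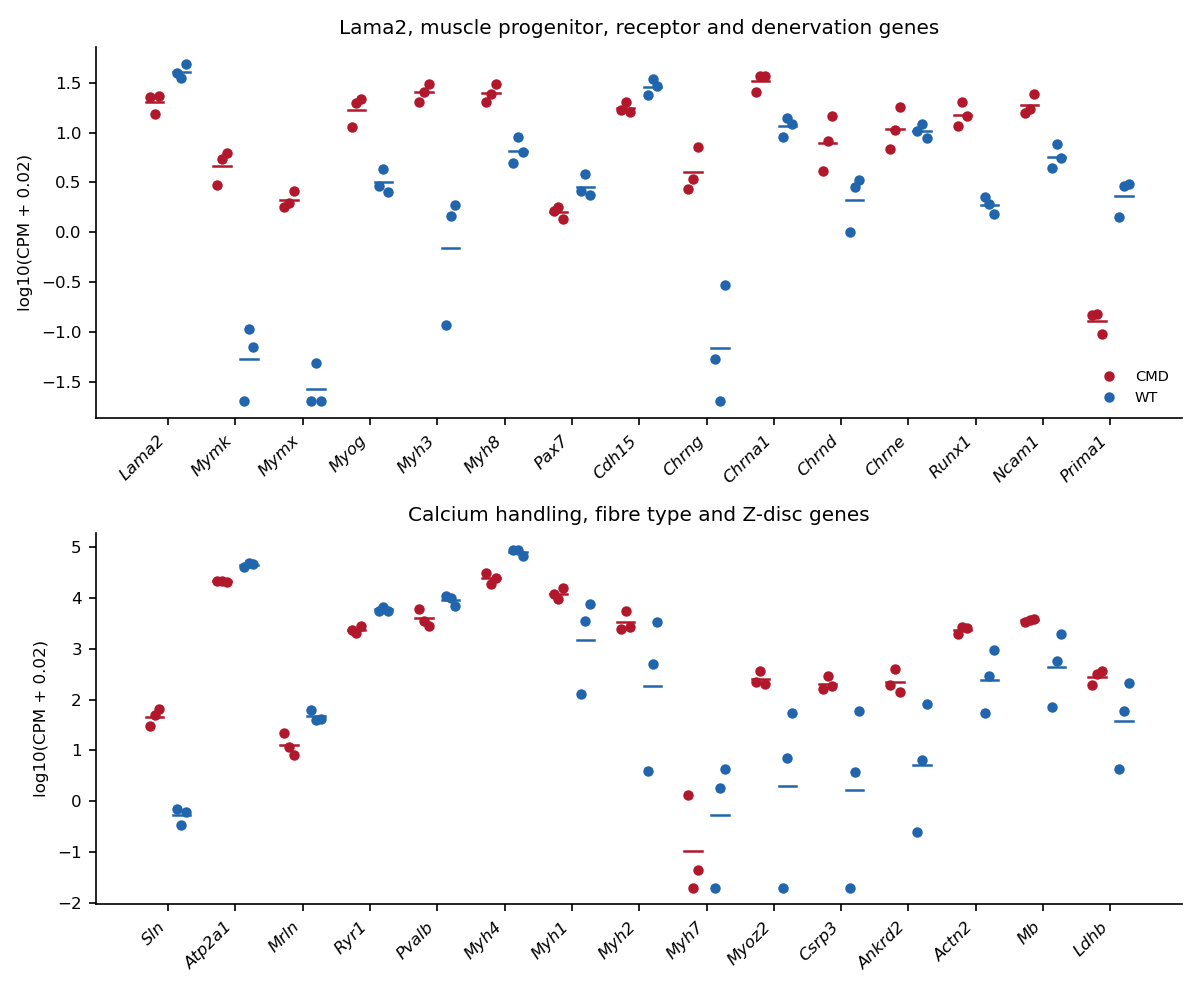
Level of single genes in each library, as log10 of CPM plus 0.02, with CMD libraries (red) left of WT libraries (blue) and a short line at the mean of each group. Mymk, Mymx, Myh3, Chrng, Runx1 and Sln have all CMD points above all WT points, and Myoz2, Csrp3, Ankrd2 and Myh2 spread widely over the WT libraries.

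Myogenin and several other genes known to respond to denervation rose. Of 16 denervation regulators 7 rose (43.75%) and 1 fell (6.25%), beside 8.23% raised and 8.81% lowered of all genes. The median fold change was 1.44. The number raised was 5 without CMD library 5. Myog (ENSMUSG00000026459), the factor that starts terminal muscle differentiation and is also induced in fibres that lose their nerve, had 11.3, 19.9 and 21.8 CPM in CMD and 2.92, 4.26 and 2.52 CPM in WT (2.63 ± 0.41, SE, adjusted p = 0.00117). Runx1 (ENSMUSG00000022952), a transcription factor of denervated and regenerating muscle, had 11.7, 20.4 and 14.5 CPM in CMD and 2.23, 1.90 and 1.49 CPM in WT (3.11 ± 0.34, SE, adjusted p = 0.000126). Ncam1, the neural cell adhesion molecule, rose by 1.89 (adjusted p = 0.000836). For all 3 genes every CMD library lay above every WT library.

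Scn4a, the sodium channel of mature skeletal muscle, was the denervation regulator that fell. It had 250, 236 and 283 CPM in CMD and 599, 775 and 630 CPM in WT, with a fold change of -1.41 ± 0.22 (SE, adjusted p = 0.00105). Fbxo32 and Trim63, the ubiquitin ligases of muscle atrophy, had -1.16 and -0.29 (adjusted p = 0.209 and 0.796). Fbxo32 was past the threshold with the 6 B6 libraries alone (-1.32, adjusted p = 0.023) and without library 16 of the 87 CMD group (-1.32, adjusted p = 0.00984).

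Among 15 acetylcholine receptor and synapse genes 3 rose (20%) and 1 fell (6.67%), beside 8.23% raised and 8.81% lowered of all genes. The median of 0.08 was near that of all genes. Only 1 rose without WT library 1. The genes that rose encode subunits of the fetal receptor, which is spread over immature or denervated fibres. Of them only Chrng is particular to the fetal receptor, and Chrna1 and Chrnd are also part of the adult receptor. Chrng, the gamma subunit, had 2.68, 3.41 and 7.07 CPM in CMD and 0.0328, 0 and 0.277 CPM in WT (4.99 ± 0.99, SE, adjusted p = 0.00436). Chrna1 had 25.3, 36.6 and 37.4 CPM in CMD and 9.05, 13.9 and 12.1 CPM in WT (1.61 ± 0.38, SE, adjusted p = 0.0117; 1.48 without WT library 1, adjusted p = 0.0564; 1.64 without CMD library 5, adjusted p = 0.0579). Chrnd rose by 2.30 (adjusted p = 0.0293), and by 1.86 without WT library 1 (adjusted p = 0.128). Its call was also lost without WT library 2, WT library 3 or CMD library 6 (adjusted p = 0.0729, 0.0516 and 0.0852). With no sex term it was at 1.91 (adjusted p = 0.0521). Chrne, the subunit that replaces Chrng in the adult receptor, had 11.8 ± 5.57 CPM in CMD and 10.5 ± 1.66 CPM in WT (SD, n = 3 each; 0.12, adjusted p = 0.886). Chrnb1 had 0.40 (adjusted p = 0.105).

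Prima1 (ENSMUSG00000041669), which anchors acetylcholinesterase in membranes, had 0.127, 0.132 and 0.0746 CPM in CMD and 1.41, 2.88 and 3 CPM in WT. Its fold change of -3.94 ± 0.53 (SE, adjusted p = 0.000458) stayed past the threshold without each B6 library, and the groups did not overlap.

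The promoters of Chrng and Chrna1 are shown because these genes moved together and both hold the letters CAGCTG, a form of the E-box that muscle regulatory factors such as myogenin can bind. They are upstream bases from RefSeq, build GRCm38.p6, which is not the build of the counts, and end at the base before the annotated start. Capitals mark CAGCTG, which reads the same on both strands.
Chrng, chr1:87205641-87205810, plus strand: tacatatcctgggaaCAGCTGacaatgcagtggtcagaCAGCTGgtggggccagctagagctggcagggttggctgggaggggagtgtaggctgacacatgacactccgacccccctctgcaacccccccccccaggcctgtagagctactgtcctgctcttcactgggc
Chrna1, chr2:73580339-73580448, minus strand: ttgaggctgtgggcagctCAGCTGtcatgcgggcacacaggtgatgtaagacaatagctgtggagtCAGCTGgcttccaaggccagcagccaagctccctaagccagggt

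In the full windows of 300 bases, from 250 before to 50 after the start, 16.3% of 32851 promoters held CAGCTG. It was in 19% of those of raised genes, 14.2% of those of lowered genes and 16% of those of genes not called. Of 13 raised genes of the progenitor, receptor and denervation lists with such a promoter 3 held it: Chrng, Chrna1 and Tnnt2. Of all 35 genes of these lists with a promoter 10 held it, among them Chrne, which was not called, and Prima1, which fell. These list counts are per gene, with a hit in any of its promoters. The shares above are per promoter, so the counts cannot be set directly beside them. A match is a description of these letters and not evidence of a bound site.

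Many calcium handling genes fell. Of 22 genes of the calcium store and its pumps 2 rose and 11 fell, with a median fold change of -0.84. Without WT library 1 the counts were 1 and 8, and without CMD library 5 they were 1 and 5. Sln (ENSMUSG00000042045), sarcolipin, a peptide that inhibits the calcium pump, was the most raised gene among those with a mean of at least 1 on the log2 CPM scale and no overlap between the groups. It had 29.8, 49.6 and 66.0 CPM in CMD and 0.688, 0.317 and 0.58 CPM in WT, a fold change of 6.47 ± 0.63 (SE, adjusted p = 5.63e-05). Without any single B6 library it was 6.23 to 6.71.

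The pump of fast fibres itself, Atp2a1 (ENSMUSG00000030730), had 21373, 21308 and 20616 CPM in CMD and 40792, 49133 and 46309 CPM in WT (-1.06 ± 0.18, SE, adjusted p = 0.00215). Mrln, myoregulin, another pump inhibitor, went the other way from Sln, with 22.2, 11.4 and 7.94 CPM in CMD and 63.2, 39.2 and 41.2 CPM in WT (-1.88 ± 0.33, SE, adjusted p = 0.00237). Neither gene overlapped between the groups. Pln, phospholamban, had 2.68 ± 0.355 CPM in CMD and 1.11 ± 0.261 CPM in WT (SD, n = 3 each; 1.34, adjusted p = 0.0522). It was past the threshold with the 6 B6 libraries alone (adjusted p = 0.0253) and by DESeq2 (adjusted p = 0.0186).

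The release side fell as well. Ryr1, the calcium release channel, had 2360, 2019 and 2742 CPM in CMD and 5582, 6765 and 5609 CPM in WT (-1.37 ± 0.20, SE, adjusted p = 0.000762). Camk2a, a calcium-dependent kinase, fell by 1.53 (adjusted p = 0.00625), and Stac3, which couples the surface channel to release, fell by 0.67 (adjusted p = 0.0131; 0.0667 without CMD library 5). Pvalb, parvalbumin, the calcium buffer of fast fibres, fell by 1.27 (adjusted p = 0.0443), but was past the threshold in only 1 of the 6 fits that leave out 1 B6 library. The exception among the stores was Casq2, the cardiac and slow calsequestrin, at 46.1 ± 12.8 CPM in CMD and 14.6 ± 13.3 CPM in WT (SD, n = 3 each). Its fold change was 2.06 (adjusted p = 0.0203). The call was lost without WT library 1 (1.43, adjusted p = 0.0857) and without CMD library 5 (2.16, adjusted p = 0.0879).

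Myh4, the heavy chain of the fastest fibres, made up less of the myosin heavy chain transcripts in CMD muscle, and Myh1 made up more. Of the summed TPM of 6 myosin heavy chain genes, Myh4 made up 68.8%, 57.2% and 58.5% in CMD libraries 4, 5 and 6, against 99.8%, 95.8% and 86.1% in WT libraries 1, 2 and 3. Myh1, of the next fastest fibres, made up 25.5%, 26.4% and 35.2% in CMD and 0.142%, 3.6% and 9.49% in WT. Myh2, of fast oxidative fibres, made up 5.56%, 16.3% and 6.2% in CMD and 0.0044%, 0.549% and 4.36% in WT. For each of these shares the groups did not overlap. The lowest share of unique reads for Myh1 was 91.3%, in WT library 1.

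**Figure D3:**
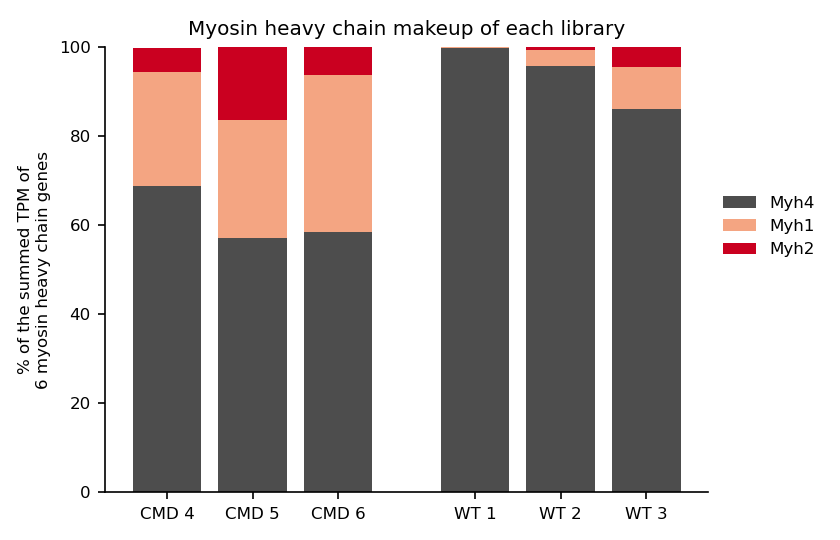
Share of Myh4, Myh1 and Myh2 in the summed TPM of 6 myosin heavy chain genes, in percent, for CMD libraries 4, 5 and 6 (left) and WT libraries 1, 2 and 3 (right). Myh4 stands at 57.2% to 68.8% in CMD and 86.1% to 99.8% in WT, and WT library 1 holds almost no other heavy chain.

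In CPM, Myh4 (ENSMUSG00000057003) had 30286, 19137 and 24926 in CMD and 86875, 87565 and 65856 in WT, a fold change of -1.79 ± 0.29 (SE, adjusted p = 0.00147) that was past the threshold without each B6 library. Myh1 was called at 3.04 ± 0.99 (SE, adjusted p = 0.0483). It was not called without WT library 1 (1.91, adjusted p = 0.116) or with no sex term (1.72, adjusted p = 0.215). Nor was it called with the 6 B6 libraries alone (3.74, adjusted p = 0.184). Myh2 was not called (3.57 ± 1.5, SE, adjusted p = 0.11), but was without WT library 3 (5.76, adjusted p = 0.0274) and by DESeq2 (3.61, adjusted p = 0.041). Myh7, the slow heavy chain, stayed at 0 to 4.29 CPM in all 6 libraries and was not called (-4.03, adjusted p = 0.186), but was without WT library 1 (-6.29, adjusted p = 0.0421) and by DESeq2 (-5.70, adjusted p = 0.0401).

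Of 14 fast fibre genes 7 fell (50%) and 1, Myh1, rose (7.14%), beside 8.81% lowered and 8.23% raised of all genes. The number lowered was 4 without WT library 1 and 4 without CMD library 5. Actn3, the alpha-actinin of fast fibres, had 4835, 3901 and 2736 CPM in CMD and 13002, 11484 and 9480 CPM in WT (-1.61 ± 0.30, SE, adjusted p = 0.00323). Mybpc2, fast myosin-binding protein C, fell by 1.39 (adjusted p = 0.00315) and Mylk2, the myosin light chain kinase of skeletal muscle, by 1.62 (adjusted p = 0.0154). The Mylk2 call was lost without WT library 1 (-1.31, adjusted p = 0.0876), CMD library 5 (-1.41, adjusted p = 0.1) or CMD library 6 (-1.48, adjusted p = 0.0535). Of 12 slow fibre genes 4 rose and none fell, but 2 rose and 2 fell without WT library 1, and 1 rose without CMD library 5. Tnni1, slow troponin I, had 6.63, 10.4 and 12.5 CPM in CMD and 0.0983, 0.288 and 1.41 CPM in WT (3.73 ± 0.83, SE, adjusted p = 0.00833; 3.08 without CMD library 5, adjusted p = 0.112). Tnnt1, slow troponin T, was not called (1.18, adjusted p = 0.416; 3.24 without WT library 3, adjusted p = 0.0361), with 6.91, 9.78 and 9.83 CPM in CMD and 0.131, 1.47 and 8.70 CPM in WT.

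The Z-disc and stretch genes moved with this axis. Of 23 such genes 11 rose and none fell, with a median of 0.71, and 6 rose without WT library 1. Myoz2 (calsarcin of slow fibres) had 220, 363 and 202 CPM in CMD and 0, 7.14 and 54.4 CPM in WT (5.49 ± 1.2, SE, adjusted p = 0.00732; 4.33 without WT library 1, adjusted p = 0.0147). Csrp3, muscle LIM protein, had 162, 296 and 183 CPM in CMD and 0, 3.77 and 60.0 CPM in WT (4.92 ± 1.36, SE, adjusted p = 0.0244; 3.87 without WT library 1, adjusted p = 0.057). Ankrd2, a stretch-responsive ankyrin protein, had 193, 392 and 142 CPM in CMD and 0.229, 6.45 and 81.3 CPM in WT (4.81 ± 1.27, SE, adjusted p = 0.0195). Without WT library 1 Ankrd2 was at 3.83 (adjusted p = 0.0579). With no sex term Myoz2, Csrp3 and Ankrd2 were at 3.67, 3.32 and 3.04, and none was called (adjusted p = 0.061, 0.11 and 0.146). Nor was any of them called with the 6 B6 libraries alone (adjusted p = 0.0581, 0.0844 and 0.0689).

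In all 3 genes WT library 1 was lowest, WT library 3 highest of the WT group, and every CMD library above it. The same order of WT libraries held for Myh1, Myh2, Mb, Actn2 and Ldhb, so the WT group was not uniform for genes of oxidative and slow fibres. Actn2, a sarcomeric alpha-actinin, rose by 3.36 ± 0.63 (SE, adjusted p = 0.00321) and by 2.60 without WT library 1 (adjusted p = 0.0102). Ankrd1, the cardiac ankyrin repeat protein, had 112, 66.4 and 91.8 CPM in CMD and 2.88, 8.90 and 25.4 CPM in WT (3.85 ± 0.84, SE, adjusted p = 0.00752). The small chaperones Hspb7 and Cryab rose by 3.34 and 1.86 (adjusted p = 0.00512 and 0.00487), both past the threshold without each B6 library. With no sex term Hspb7 was at 2.48 and not called (adjusted p = 0.0509).

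Among intermediate filaments Krt18 (ENSMUSG00000023043) and its partner Krt8, keratins of simple epithelia that muscle also makes at low level, rose. Krt18 had 11, 16.6 and 5.23 CPM in CMD and 0.229, 0.346 and 0.151 CPM in WT (5.53 ± 0.67, SE, adjusted p = 0.000239). Synm, synemin, which links filaments to the Z-disc and membrane, fell by 1.28 (adjusted p = 0.00744; 0.0503 without CMD library 5).

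Most nuclear genes of each respiratory complex rose. Of 79 nuclear genes of oxidative phosphorylation 72 rose and none fell, and all 79 fold changes were above 0 with a median of 0.69. Without WT library 1 the number raised was 63, and without CMD library 5 it was 65. By complex, 32 of 36 genes of complex I rose, 3 of 4 of complex II, 9 of 9 of complex III, 13 of 14 of complex IV with cytochrome c, and 15 of 16 of ATP synthase. The fold changes lay between 0.24 and 1.17 on the log2 scale.

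Sdhb (ENSMUSG00000009863), a subunit of complex II, had 449, 506 and 530 CPM in CMD and 179, 276 and 348 CPM in WT (1.07 ± 0.16, SE, adjusted p = 0.000831). Cox7a1, the muscle form of a complex IV subunit, had 238, 235 and 254 CPM in CMD and 127, 115 and 127 CPM in WT (0.99 ± 0.14, SE, adjusted p = 0.000511). Ndufb5 of complex I had 308, 302 and 308 CPM in CMD and 152, 146 and 184 CPM in WT (1.01 ± 0.13, SE, adjusted p = 0.000406). The groups did not overlap in any of the 3, and all were called without each B6 library.

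Of 13 genes encoded by mitochondrial DNA 5 rose (3 without CMD library 5), and all 13 were above 0. The 5 were mt-Co1, mt-Co2, mt-Co3, mt-Cytb and mt-Atp6. With the 6 B6 libraries alone none of them was called (adjusted p = 0.0557, 0.056, 0.0654, 0.0602 and 0.072). Mitochondrial transcripts took 20.5%, 21.7% and 21.8% of exon reads in CMD, against 11.7%, 9.01% and 13.7% in WT. mt-Co1, a core subunit of complex IV, was the gene with the largest gain in CPM, at 55212, 58924 and 62650 in CMD and 31240, 26710 and 39214 in WT (0.90 ± 0.19, SE, adjusted p = 0.00591). Of 22 genes of the citric acid cycle and pyruvate entry 14 rose and none fell (7 without WT library 1), among them Mdh1 at 1.14 (adjusted p = 0.00219). Of 28 fatty acid genes 6 rose (21.4%) and 1 fell (3.57%), beside 8.23% raised and 8.81% lowered of all genes. None of the 28 rose without WT library 1. Ppargc1a and Esrra, regulators of mitochondrial genes, had 0.19 (adjusted p = 0.666) and 0.57 (adjusted p = 0.0225; 0.43 without WT library 1, adjusted p = 0.126).

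**Figure D4:**
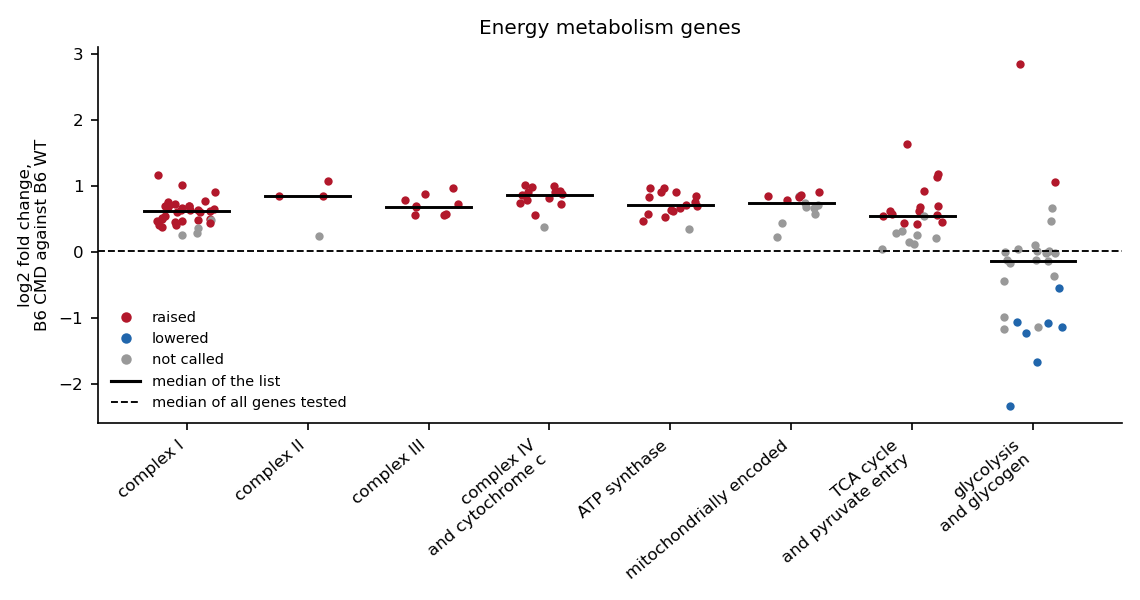
Fold change of each energy metabolism gene in B6 CMD against B6 WT, on the log2 scale, by list. Points are genes (red raised, blue lowered, grey not called), solid lines are list medians and the dashed line is the median of all genes at 0.02; every respiratory chain gene lies above 0, and all lowered genes among the lists shown are in glycolysis and glycogen.

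Of 27 genes of glycolysis and glycogen 7 fell (25.9%) and 2 rose (7.41%), beside 8.81% lowered and 8.23% raised of all genes. The median was -0.14. The counts were 5 and 0 without WT library 1, and 3 and 2 without CMD library 5. Pygm, glycogen phosphorylase, had 5218, 4391 and 4167 CPM in CMD and 11475, 9976 and 7969 CPM in WT (-1.14 ± 0.18, SE, adjusted p = 0.00145). Phka1, a subunit of the kinase that activates it, fell by 1.66 (adjusted p = 0.00287). Pfkfb3, which makes an activator of phosphofructokinase, had 138, 71.6 and 101 CPM in CMD and 881, 329 and 206 CPM in WT (-2.33 ± 0.37, SE, adjusted p = 0.00126). The risers were Gbe1, the glycogen branching enzyme, at 1.06 (adjusted p = 0.00921), and Ldhb, the heart-type lactate dehydrogenase, at 2.84 (adjusted p = 0.0356), both not past the threshold without WT library 1 (adjusted p = 0.0578 and 0.0912). Mb, myoglobin, which stores oxygen in oxidative fibres, had 3283, 3726 and 3892 CPM in CMD and 70.0, 565 and 1971 CPM in WT (2.94, adjusted p = 0.0301). It was not called without WT library 1 (1.98, adjusted p = 0.0901). With no sex term Gbe1, Ldhb and Mb were not called (adjusted p = 0.0545, 0.203 and 0.0936).

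Gene length moved with the calls. The median exon length was 2240 bases for raised genes and 5285 for lowered genes, against 3504 for all genes tested. Of the 2902 genes with the shortest exons, up to 1988 bases, 18.3% were raised and 2.14% lowered. Of the 2900 with the longest, from 5791 bases, 3.45% were raised and 18.4% lowered. Nuclear oxidative phosphorylation genes had a median exon length of 1046 bases. The long genes that fell include Ryr1 and Nos1. The part of length in these results was not tested. The median fold change of the shortest group was 0.28 in B6, 0.08 in 67 and 0.20 in 87, and of the longest -0.24, -0.07 and -0.06.

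**Figure D5:**
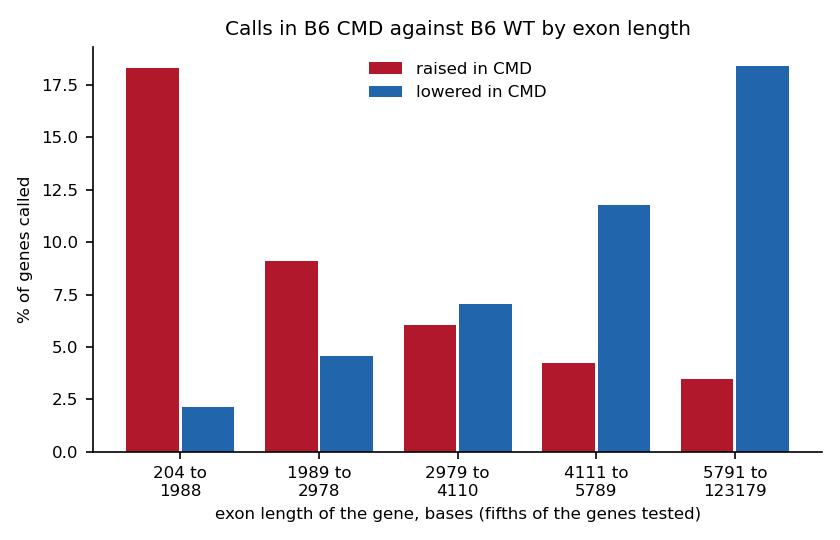
Percent of genes raised (red) and lowered (blue) in B6 CMD against B6 WT in 5 equal groups of the tested genes by exon length in bases. Raised genes are most frequent in the shortest group at 18.3%, and lowered genes in the longest at 18.4%.

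In the matrix, several single components rose, and the main fibrillar collagens were called only under some of the settings tried. Of 29 genes of fibrillar collagens and fibrosis 8 rose and none fell, with a median of 0.72. The median was 0.97 without WT library 1 and 0.28 without CMD library 5. Postn, periostin, had 47.6, 64.8 and 45.6 CPM in CMD and 5.51, 2.88 and 4.69 CPM in WT (3.52 ± 0.54, SE, adjusted p = 0.00105). Mgp, matrix Gla protein, an inhibitor of calcification, had 115, 154 and 149 CPM in CMD and 12.6, 18.9 and 20.1 CPM in WT (3.27 ± 0.47, SE, adjusted p = 0.000711). Bgn and Eln, biglycan and elastin, rose by 1.97 and 1.96 (adjusted p = 0.000711 and 0.000839). None of these overlapped between the groups, and all were called without each B6 library. Col1a1 had 242 ± 18.8 CPM in CMD and 103 ± 36.9 CPM in WT (SD, n = 3 each; 1.08, adjusted p = 0.169), and Col3a1 had 1.18 (adjusted p = 0.148). Both were past the threshold with the 6 B6 libraries alone (adjusted p = 0.0309 and 0.0425) and without library 16 of the 87 CMD group (adjusted p = 0.00959 and 0.0128).

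Of 22 matrix proteases and inhibitors 6 rose, and 2 without CMD library 5. Timp1 (ENSMUSG00000001131), an inhibitor of metalloproteases, had 5.67, 12 and 5.95 CPM in CMD and 0.197, 0.173 and 0.378 CPM in WT (5 ± 0.56, SE, adjusted p = 0.000126). Mmp3, stromelysin, had 1.42, 10.8 and 2.36 CPM in CMD and 0.459, 0 and 0.353 CPM in WT (4.13 ± 0.86, SE, adjusted p = 0.00576), and 2.53 (adjusted p = 0.0652) without CMD library 5. Of 12 tendon and cartilage genes 4 rose: Cilp, Thbs4, Comp and Prg4. The calls of Comp and Prg4 were lost without WT library 1 (adjusted p = 0.103 and 0.0719), and that of Comp also without CMD library 5 (adjusted p = 0.105). The tendon and cartilage markers had a summed level of 346 to 539 TPM in CMD and 93.2 to 213 TPM in WT. Their part in the matrix results was not tested.

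Of 24 genes of TGF-beta, myostatin and activin signalling 3 rose and 3 fell, 12.5% each way, beside 8.23% raised and 8.81% lowered of all genes. Mstn (ENSMUSG00000026100), myostatin, an inhibitor of muscle growth, had 23, 11.1 and 12.6 CPM in CMD and 96.0, 61.3 and 76.2 CPM in WT (-2.25 ± 0.39, SE, adjusted p = 0.00223). Its receptor Acvr2a fell by 1.10 (adjusted p = 0.00764; 0.0705 without CMD library 5), and Fst, follistatin, which binds and blocks it, rose by 1.16 (adjusted p = 0.00547). Tgfb1 rose by 0.88 (adjusted p = 0.0108; 0.109 without CMD library 5) and Ltbp2, a matrix protein related to those that bind latent TGF-beta, rose by 3.39 (adjusted p = 0.00352). Dkk3 (ENSMUSG00000030772), a secreted protein of the family of Wnt inhibitors, was the most lowered gene at the same minimum level and without overlap. It had 2.76, 3.02 and 2.49 CPM in CMD and 30.6, 48.0 and 35.2 CPM in WT (-4.01 ± 0.52, SE, adjusted p = 0.00039). Wnt4 fell by 1.95 (adjusted p = 0.00653).

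Part of the macrophage transcripts rose. Of 23 macrophage genes 7 rose and none fell, with a median of 1.18, against 0.02 for all genes. The number was 9 without WT library 1 and 1 without CMD library 5. Lgals3, galectin-3, had 10.6, 17 and 13.9 CPM in CMD and 4.07, 1.99 and 2.19 CPM in WT (2.27 ± 0.43, SE, adjusted p = 0.00364). Trem2, a receptor of lipid-handling macrophages, rose to 1.70 ± 0.271 CPM in CMD against 0.21 ± 0.131 CPM in WT (SD, n = 3 each; 2.92, adjusted p = 0.0101; 1.94 without CMD library 5, adjusted p = 0.12). Among 16 complement genes 2 rose (12.5%, beside 8.23% of all genes), with 5 raised without WT library 1 and none without CMD library 5. C1qa, a complement component made by macrophages, had 28.2, 41.4 and 28.1 CPM in CMD and 26.4, 7.89 and 8.83 CPM in WT, where WT library 1 stood close to the CMD group (1.2, adjusted p = 0.0357; 0.50 without CMD library 5, adjusted p = 0.385). The summed macrophage markers were 475 to 639 TPM in CMD and 195 to 486 TPM in WT, the highest WT value being library 1. Of 10 lymphocyte genes tested 2 rose, Cd2 and Cd3g (20%, beside 8.23% of all genes). None of the 10 rose without WT library 1 or without CMD library 5. The median fold change of the 10 was 0.09, and 3 were below 0. The summed lymphocyte markers were 3.08 to 5.52 TPM in CMD and 1.67 to 7.04 TPM in WT, where library 1 was again highest. Cd3g, a chain of the T cell receptor complex, had 34 reads over the CMD libraries and 0 over the WT libraries, at least 10.4-fold higher when the WT group is set to a floor of 3 reads in all. Trac and Ighm, markers of T and B cells, had 0 in all 6 libraries, which does not show that such cells were absent.

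None of 12 adipocyte genes was called by edgeR (0 at an unadjusted p under 0.05, 0 by DESeq2), and their summed level was 2806 to 3930 TPM in CMD and 1924 to 3378 TPM in WT. Of 16 Schwann and myelin genes 1 rose, Egr2 (6.25%, none without WT library 1 or CMD library 5). Their summed level was 51.7 to 82.5 TPM in CMD and 49.9 to 85.5 TPM in WT. Of 14 endothelial genes 1 rose (7.14%, none without WT library 1 or CMD library 5), while their sum was 391 to 439 TPM in CMD and 228 to 264 TPM in WT. The raised shares of the Schwann and endothelial lists are under the 8.23% of all genes. Of 16 fibro-adipogenic progenitor genes 2 rose (12.5%, beside 8.23% of all genes), and 1 rose and 1 fell without CMD library 5. Their sum was 1282 to 1442 TPM in CMD and 1021 to 2023 TPM in WT, again highest in library 1.

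Membrane repair and stress genes rose in part. Of 23 annexin and repair genes 10 rose and 1 fell, and 2 rose without CMD library 5. S100a4, a calcium-binding protein of fibroblasts and leukocytes, had 21.1, 24.1 and 19.1 CPM in CMD and 5.70, 4.98 and 2.19 CPM in WT (2.25 ± 0.31, SE, adjusted p = 0.000525). Trim72, which seals membrane tears, rose by 0.72 (adjusted p = 0.00562; 0.0614 without CMD library 5), and Capn3, the muscle calpain, fell by 0.74 (adjusted p = 0.00684; 0.0521 without CMD library 5). Of 22 immediate early and heat shock genes 9 rose, and 5 without WT library 1. Atf3 had 23.4, 19.3 and 47.2 CPM in CMD and 0.918, 2.59 and 1.97 CPM in WT (4.70 ± 0.75, SE, adjusted p = 0.00125). Fosl1 had 35 reads over the CMD libraries and 0 over the WT libraries, at least 10.7-fold higher.

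Among other genes Rrad (ENSMUSG00000031880), a small GTPase that restrains calcium channels, had 34.0, 55.0 and 47.6 CPM in CMD and 1.48, 1.01 and 0.732 CPM in WT (5.34 ± 0.52, SE, adjusted p = 5.63e-05). Th, tyrosine hydroxylase of catecholamine synthesis, had 160 reads over the CMD libraries and 0 over the WT libraries, at least 48.8-fold higher. Chac1, which breaks down glutathione, had 6.40, 9.91 and 6.89 CPM in CMD and 53, 53.1 and 63.2 CPM in WT (-2.71 ± 0.42, SE, adjusted p = 0.00111). Nt5c1a, a nucleotidase that acts on AMP, and Pla2g7, which inactivates platelet-activating factor, fell by 3.53 and 2.64 (adjusted p = 0.00884 and 0.000263), and the Nt5c1a call was lost without CMD library 5 (-2.89, adjusted p = 0.0601). Mss51, a mitochondrial protein of glycolytic muscle, fell by 2.84 (adjusted p = 0.00839), but its WT level rested on library 1, at 169 CPM beside 36.7 and 29.7 CPM (-2.34 without it, adjusted p = 0.0599).

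Of 24 autophagy and lysosome genes 3 rose (12.5%) and 2 fell (8.33%), beside 8.23% and 8.81% of all genes. The number raised was 5 without WT library 1 and 2 without CMD library 5. Ulk1, the kinase that starts autophagy, had 61.1, 52.0 and 55.5 CPM in CMD and 145, 161 and 151 CPM in WT (-1.35 ± 0.18, SE, adjusted p = 0.000489), and Tfeb, the regulator of lysosome genes, fell by 0.86 (adjusted p = 0.00171). The lysosomal proteases Lgmn and Ctss rose by 1.58 and 1.53 (adjusted p = 0.000408 and 0.0121; Ctss 0.131 without CMD library 5). Of 14 clock genes 4 fell, Hlf, Cry1, Tef and Nr1d1 (28.6%, beside 8.81% of all genes). None of the 14 rose, and 13 of 14 fold changes were below 0. Of 19 polyamine and NAD genes 3 fell (15.8%). Amd1 and Amd2, copies of the gene of an enzyme of polyamine synthesis, fell by 2.15 and 2.74 (adjusted p = 0.00225 and 0.00335), but only 30.4% to 32.2% of the reads of Amd1 and 29.2% to 33.3% of those of Amd2 were unique, so their split is uncertain, and neither was called with no sex term (adjusted p = 0.225 and 0.141). None of 31 proteasome genes was called by edgeR, with 1 at an unadjusted p under 0.05 and 0 called by DESeq2. Of 16 interferon response genes 4 rose, of 17 p53 and senescence genes 3, of 16 cell cycle genes 2 and of 11 genes of insulin-like growth factors 2. These are 25%, 17.65%, 12.5% and 18.18% of the members tested, beside 8.23% of all genes. None of these lists had a gene that fell. Without WT library 1 the numbers raised were 1, 4, 1 and 0, and without CMD library 5 they were 1, 2, 0 and 0.

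The CMD effect in B6 was set against that in 67 and in 87, whose CMD and WT groups hold other libraries. All came from the same fit, with a shared spread and a shared sex term, so they are not independent estimates. The respiratory chain gives an example: the number of 79 nuclear genes raised was 72 in B6, 19 in 67 and 78 in 87, with median fold changes of 0.69, 0.23 and 0.89. Of all genes 12.9% were raised and 9.45% lowered in 67, and 13.5% and 10.2% in 87. Of 12 slow fibre genes 4 rose in B6, 10 in 67 and 7 in 87, with medians of 0.57, 5.45 and 4.09. These list differences were not tested as such. Gene by gene, 3 of 14503 genes (0.0207%) differed between the B6 and 67 effects, and 2 (0.0138%) between the B6 and 87 effects, with 1375 and 2005 at an unadjusted p under 0.05. DESeq2 called 111 and 219, and edgeR called 0 or 1 in either comparison when any 1 B6 library was left out. For Lama2 the difference between B6 and 67 was -1.28 ± 0.29 (SE, adjusted p = 0.294), the 67 effect being 0.16 (adjusted p = 0.594). The genes past the threshold are Sh3d19, Sh3pxd2a and Gm32687 against 67, and Spon2 and Vcan against 87.

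Vcan, versican, a proteoglycan of provisional matrix, had 7.22, 8.06 and 6.49 CPM in B6 CMD and 4.95, 2.27 and 2.12 CPM in B6 WT (1.16, adjusted p = 0.0157; 0.72 without CMD library 5, adjusted p = 0.168). In 87 it had 1.69, 2.75 and 2.74 CPM in CMD and 8.76, 4.68 and 6.96 CPM in WT (-1.69, adjusted p = 0.00135). The direction differed between the strains, and the groups did not overlap in either. Sh3pxd2a, a scaffold of podosomes, had 96.2, 65.8 and 114 CPM in B6 CMD and 129, 126 and 105 CPM in B6 WT (-0.59, adjusted p = 0.0099; -0.50 without CMD library 5, adjusted p = 0.088), and 121, 112 and 111 CPM in 67 CMD and 89.7, 67.2 and 67.8 CPM in 67 WT (0.79, adjusted p = 0.00112). Its libraries overlapped in B6 and not in 67.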

How the data were processed

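RNA was extracted from left quadriceps with TRIzol and made into libraries with a stranded mRNA kit, per the labels' protocols. The authors deposited, for each library, total and unique exon read counts, TPM and RPKM per gene. The genome build is GRCm39 (mm39), per the submitters' processing notes. For the aligner, the counter and its strand setting the entry is: not given in the sources used here. Total exon read counts as deposited were tested, the deposited TPM values were used for levels set side by side between genes and for marker sums, and the deposited RPKM values were not used.

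The fit used edgeR 4.0.16 in R 4.3.3: TMM scaling, a filter on low counts by group (minimum 10, total 15), and the quasi-likelihood test on 18 libraries of B6, 67 and 87 with terms for group and labelled sex. The 67 and 87 libraries enter because 3 against 3 libraries give few degrees of freedom for the spread. The D2 libraries were left out, since Y-linked reads went against the labelled sex in 4 of them. CPM values are TMM-scaled. A standard error is the fold change divided by the root of its F value. The script was tested on simulated data. Genes at 0 reads in a group are given as bounds, with a floor of 3 reads over the group; 95% intervals are exact and cover counting error only.

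Named genes were the most raised and lowered, those with the largest change in CPM, the leading members of 48 lists, and members of the laminin, dystrophin complex, receptor, myosin and pump families; a few others were chosen after their values were seen. The members and lists were chosen with earlier results of these data known. Alternatives were DESeq2 1.42.0, other size factors, no filter, unique reads, no sex term, other sets of libraries and leaving out single libraries. Promoters are from RefSeq, GRCm38.p6. Some called members of the lists are counted but not reported by name here.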

Additional observations from a re-analysis of the deposited data

Results flagged for a closer look

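The CMD effect in B6 differed from that in 67 for 3 genes and from that in 87 for 2, by edgeR's quasi-likelihood test of the difference. With any 1 B6 library left out either count was 0 or 1. Sh3d19 had 18.3, 18.1 and 21.5 CPM in B6 CMD and 12.8, 9.62 and 10.4 CPM in B6 WT, and 44.8, 29.9 and 50.4 CPM in 67 CMD and 10.3, 7.97 and 7.05 CPM in 67 WT, a difference of effects of -1.76 ± 0.26 (SE, adjusted p = 0.0289). The direction was the same in both strains. Sh3pxd2a differed by -1.38 (adjusted p = 0.0289), with -0.59 in B6 and 0.79 in 67. The fitted difference for Gm32687 was -10.04, which depends on the prior count because it had 0 reads in all 67 WT libraries; it had 2.81, 0.746 and 2.49 CPM in 67 CMD, and 4.96, 3.15 and 3.01 CPM in B6 CMD against 5.11, 4.78 and 4.31 CPM in B6 WT.

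Spon2 had 7.54, 3.48 and 6.15 CPM in B6 CMD and 1.54, 1.56 and 0.933 CPM in B6 WT, and 0.739, 0.61 and 1.16 CPM in 87 CMD and 3.68, 4.15 and 2.87 CPM in 87 WT, a difference of 4.16 ± 0.58 (SE, adjusted p = 0.0416). Vcan differed by 2.85 (adjusted p = 0.0416), with 1.16 in B6 and -1.69 in 87.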

How the results depend on the processing

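The count of genes called in B6, 2471, was 3827 without library 16 of the 87 CMD group (1766 raised, 2061 lowered) and 929 with a log2 fold change of at least 1 required (564 raised, 365 lowered). With 1 B6 library left out it was 889 to 1857, with 511 to 928 raised and 378 to 929 lowered. Other settings gave 2171 to 3311. The count of differences from 67, 3, was 1 with all 24 libraries and sex as labelled, 1 with all 24 and no sex term, 5 without library 16, 1 with no sex term and 111 by DESeq2, and 0 to 1 with 1 B6 library left out. The count from 87, 2, was 8, 1, 0, 1 and 219 in that order, and 0 to 1. Lama2 was lowered in every setting run. Of 224 named genes 158 kept their call status without WT library 1, and 151 without CMD library 5. The sign turned for 6 genes that were not called, whose ranges over single libraries left out were -0.06 to 0.32 for Lama4, -0.17 to 0.02 for Lamc1, -0.56 to 0.07 for Dmd, -0.09 to 0.48 for Ppargc1a, -0.55 to 0.50 for Trim63 and -0.25 to 0.38 for Chrne. The causes were not tested. No paired analysis was possible because the replicate numbers are not shared between the groups compared.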
